A study of Mus musculus with 9 samples.

Results

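Trichostatin A (TSA) was compared with vehicle in F9 cells. This mouse embryonal carcinoma line grows as undifferentiated cells and can be driven toward endoderm. The comparison used 6 of the study's 9 arrays, chosen by their titles: 3 of cells given TSA at 0.07 µM for 24 h and 3 of control cells kept for 24 h in DMEM with ethanol. The other 3 arrays held F9 cells given retinoic acid (RA) at 0.5 µM for 24 h. They entered the fit as further arrays for the estimate of spread and served for direct comparison. The labels name no genetic change in any group and no solvent for TSA or RA, and they do not say whether the 3 arrays of a group came from separate cultures. The p-values therefore measure only the spread between these arrays, which may be technical. The labels also describe the array facility in different words for control and for treated cells. If the groups were run apart, run and treatment cannot be told apart.

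Histone deacetylases remove acetyl groups from lysines of histones and of other proteins, and they act in corepressor complexes that keep genes silent. TSA is a hydroxamate that blocks the zinc-dependent deacetylases and leaves the NAD-dependent sirtuins largely untouched. In many cell lines it is known for raising inhibitors of the cell cycle, cytoskeletal genes and genes that are silent in the cell type studied.

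All 12422 probe sets other than the 66 controls were taken, of 12488 on the array, and those with a single gene symbol gave 8251 genes. Each deposited value is a ratio to the mean of the vehicle arrays for that probe set. No marker's level can therefore be read from these values, and the embryonal carcinoma label could not be checked by level. Ratios of different genes do not compare their amounts of RNA, and fewer cells with a transcript cannot be told apart from less transcript per cell. The vehicle arrays scattered most, with a median SD over genes of 0.378 on the log2 scale, against 0.242 for TSA and 0.286 for RA. The 18S ribosomal control was uneven within vehicle, with medians of 0.538, 0.073 and 2.40 for replicates 1, 2 and 3, and low in TSA, at 0.034 to 0.053. The spike-ins added at hybridisation ran from 0.822 to 1.23 in vehicle and from 0.563 to 0.726 in TSA. The part of these controls in the results was not tested.

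TSA changed 371 of 8251 genes, 4.5% of them, at a Benjamini-Hochberg adjusted p under 0.05 in limma. Of these, 224 were higher (2.71% of all genes) and 147 were lower (1.78%). Rises were larger than falls. The median rise among the changed genes was 1.71 on the log2 scale, and 206 rose by at least 1, 90 by at least 2, 32 by at least 3 and 8 by at least 4. The median fall was -1.11, with 100 genes at -1 or below, 8 at -2 or below and 2 at -3 or below. Over all genes the median log2 change was -0.15 and 36.8% lay above 0, so the bulk of the array sat slightly under vehicle while a longer tail reached upward. Centring each array on its median moved that median to 0.05 and the split to 334 higher and 65 lower, and quantile normalisation gave 80 higher and 21 lower. After centring 289 of the 371 genes still passed. Their signs could not turn, because centring moves every gene's change by the same amount. That amount was smaller than the smallest rise (0.70) and fall (-0.73) that passed. Every changed gene had TSA arrays that did not overlap the vehicle arrays, as had 28.2% of all genes, 10.4% in the upward and 17.8% in the downward direction. Single arrays moved the count. Leaving out vehicle replicate 1 or 2 gave 241 or 119 changed genes, and leaving out TSA replicate 1, 2 or 3 gave 175, 95 or 159. By probe set, 432 of 12422 passed (3.48%), 2.21% higher and 1.27% lower. Of the rises, 68 passed in every fit that left out 1 of the 9 arrays, and of the falls 16 did.

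**Figure D1:**
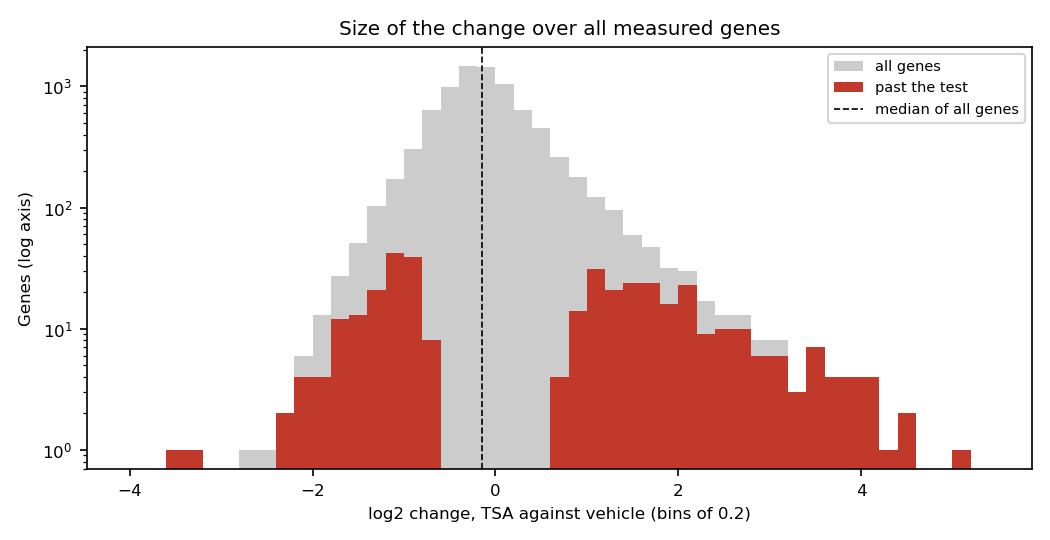
Number of genes (log axis) by log2 change between TSA and vehicle, in bins of 0.2, for all 8251 genes (grey) and the 371 past the test (red). The changed genes form a longer tail to the right, reaching 5.01, than to the left, where the lowest is -3.53.

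The largest rise was that of Muc3, a membrane mucin of intestinal epithelium, which stood at 18.6, 62.8 and 27.2 times the vehicle mean on the TSA arrays. On the vehicle arrays it was 0.713, 0.744 and 1.54, so the groups lay far apart and TSA replicate 2 was the highest (log2 change 5.01 ± 0.48 SE, adjusted p = 0.00162). Rab3b, a small GTPase of regulated secretion, reached 18, 31.5 and 14.6 against 0.860 to 1.09 (4.28 ± 0.34, adjusted p = 0.000709). Tinagl1, a glycoprotein of basement membranes, reached 10.7, 15.1 and 15 against 0.496 to 1.75 (3.87 ± 0.39). Clu, the secreted chaperone clusterin, rose by 3.53 ± 0.28 with both of its probe sets past the test. All 4 passed in each of the 9 fits without 1 array.

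Other large rises had wider errors. Mlf1, a regulator first known from myeloid leukaemia, stood at 11.7, 14.0 and 9.35 on the TSA arrays and at 2.25, 0.256 and 0.494 on the vehicle arrays (3.99 ± 0.70). Usp18, which removes the ubiquitin-like Isg15 from proteins, stood at 3.67, 17 and 27.9 against 0.476 to 1.66 (3.69 ± 0.69). Gstk1, a glutathione transferase of mitochondria and peroxisomes, stood at 8.97, 15.9 and 9.82 against 0.624 to 1.33 (3.48 ± 0.74). In these genes the groups did not overlap, but the calls of Mlf1 and Usp18 each held in 5 and that of Gstk1 in 2 of the 9 fits without 1 array.

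The deepest fall was that of Foxd3, a forkhead factor needed by the pluripotent epiblast, to 0.061, 0.0265 and 0.0346 of the vehicle mean (log2 change -3.53 ± 0.35, adjusted p = 0.00188). Vehicle arrays held 0.810 to 1.21 for it, so every TSA array lay far below. Values this low sit near the pseudocount of 0.05, so the log2 change understates the fall. Pkdcc, a secreted protein kinase, fell to 0.151, 0.190 and 0.106 against 0.745 to 1.40 (-2.37 ± 0.36). Vegfc, a growth factor of lymphatic vessels, fell to 0.249, 0.111 and 0.205 against 0.722 to 1.45 (-2.12 ± 0.34). Spout1, named for an RNA methyltransferase fold, fell by 2.30 on the log2 scale with both probe sets past the test, at -1.14 and -3.46. Bcat2, the mitochondrial branched-chain aminotransferase, fell to 0.321, 0.193 and 0.304 (-1.70 ± 0.24). These 5 calls held in all 9 fits without 1 array apart from that of Vegfc, which held in 8. That of Foxd3 was lost under 1 of its 20 alternatives, a variance trend, in which the expected spread follows the mean (adjusted p = 0.378).

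The remaining large falls were less steady. Mmp10, a matrix metalloproteinase, stood at 0.264, 0.175 and 0.153 on the TSA arrays, but the vehicle arrays ran from 0.467 to 1.78 (-1.91 ± 0.44). Hmga2, a chromatin protein of embryonic cells, stood at 0.342, 0.133 and 0.415 against 0.759 to 1.32 (-1.67 ± 0.37). Cpq, a secreted carboxypeptidase, had a change of -1.89 ± 0.43 and Mtrf1l, a mitochondrial release factor, one of -1.72 ± 0.40. None of these 4 overlapped with vehicle, yet their calls held in 1, 0, 2 and 1 of the 9 fits without 1 array.

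**Figure D2:**
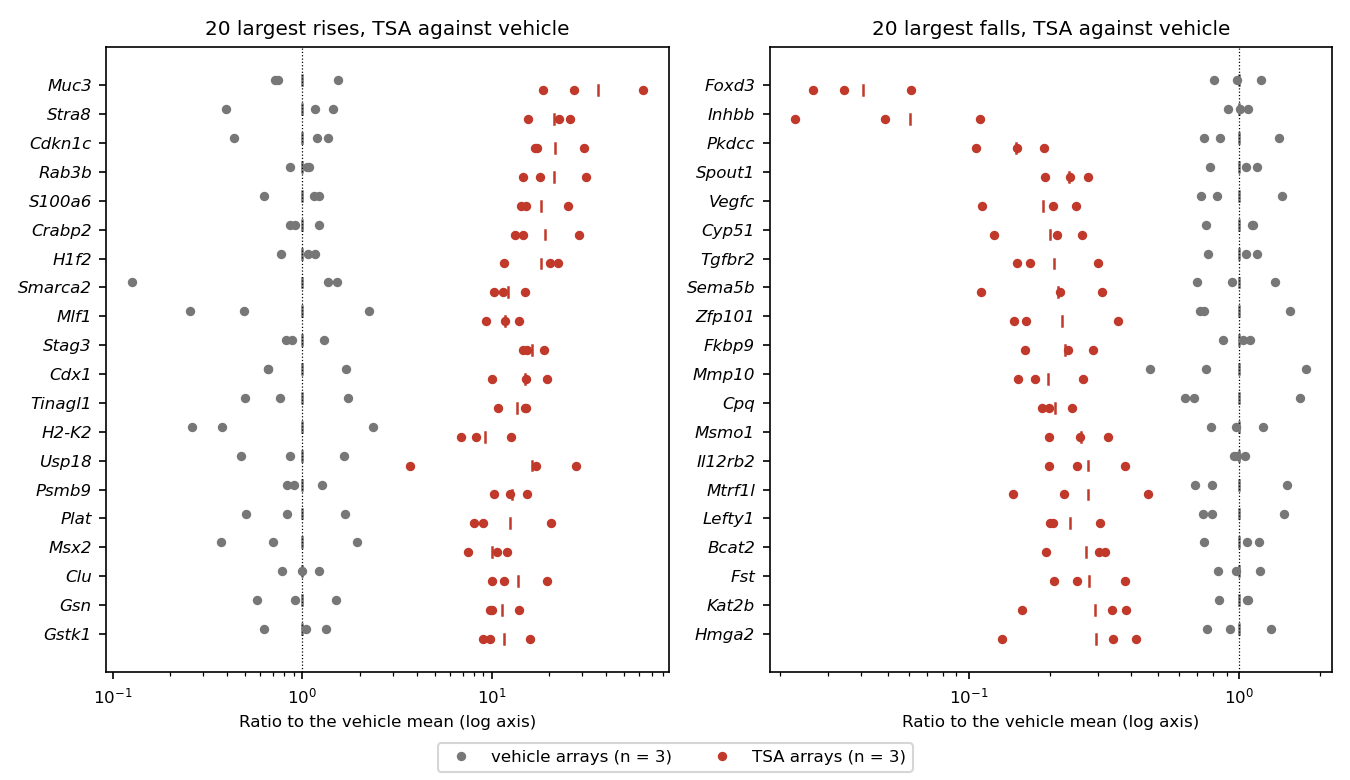
Ratio to the vehicle mean (log axis) on each vehicle array (grey) and each TSA array (red) for the 20 largest rises (left) and the 20 largest falls (right), with short bars at the group means. Genes were chosen among those whose groups do not overlap, and the vehicle points of Smarca2, Mlf1 and H2-K2 spread widely.

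The changed genes were then read by function, through 67 lists that together covered 2072 measured genes and 157 of the changed ones. A gene can stand in several lists, as Cdkn1a, Stra8, Prph and Plat do. Changed genes were found in 52 lists, with rises alone in 23, falls alone in 13 and both in 16. The count of each list is to be read against the 2.71% of all genes that were higher and the 1.78% that were lower. The lists farthest above the upward share were CDK inhibitors, known responders to deacetylase inhibitors, and annexins and S100 proteins. Cholesterol synthesis, the Nodal and TGF-beta pathway and pluripotency stood farthest above the downward share.

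**Figure D3:**
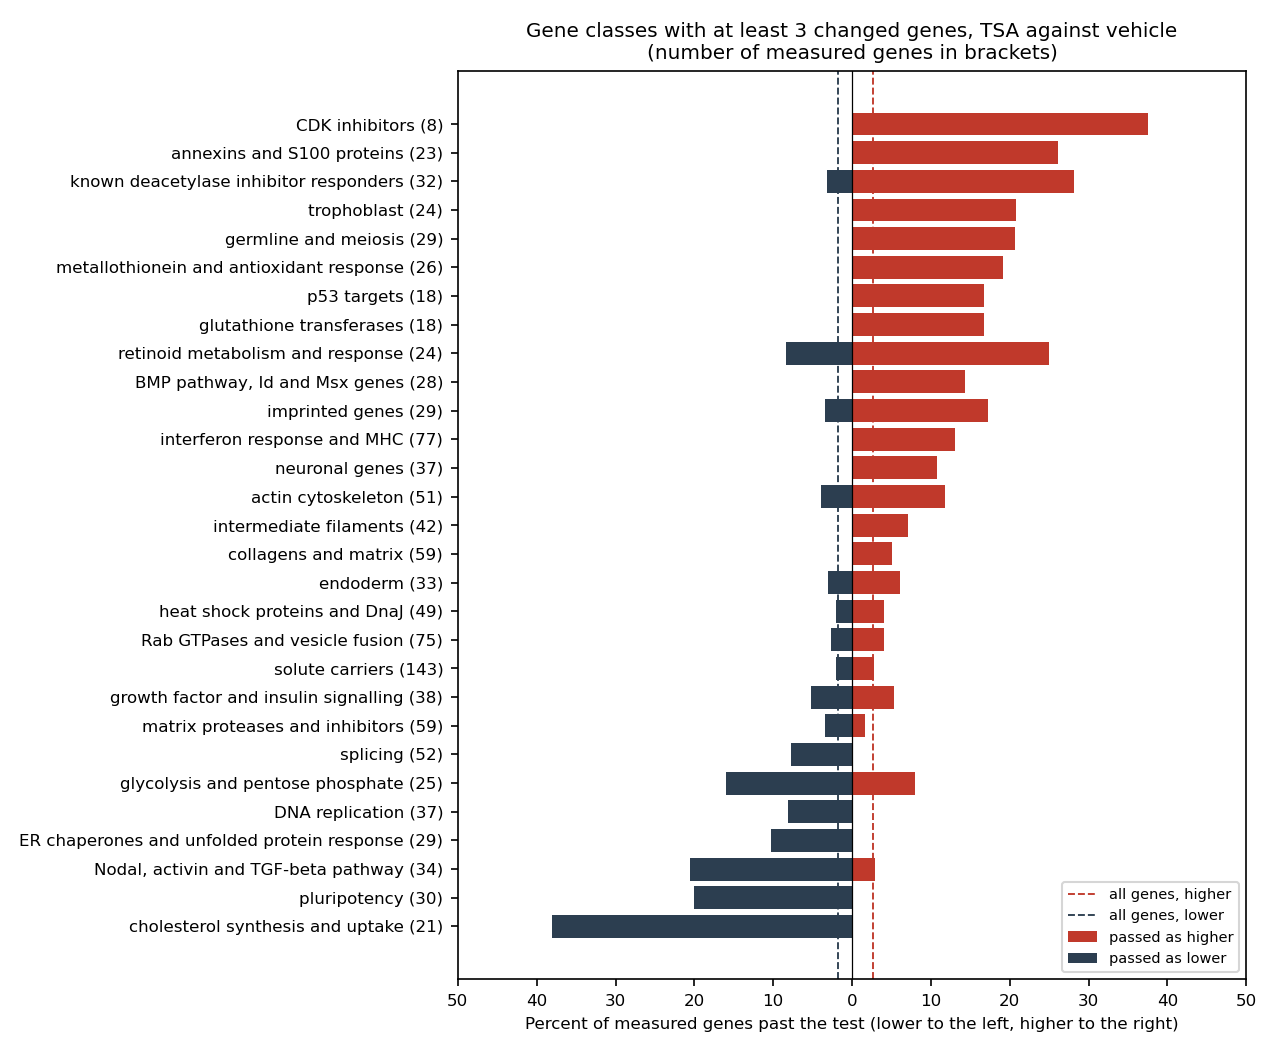
Percent of the measured genes of each list that passed the test as higher (red, to the right) or lower (dark, to the left) in TSA, for lists with at least 3 changed genes; dashed lines give the same for all genes, 2.71% and 1.78%. CDK inhibitors reach 37.5% upward and cholesterol genes 38.1% downward.

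The deacetylases, of which only the zinc-dependent ones are targets of the compound, showed no change that passed. Of 9 measured, 0 passed in either direction in limma, where 2 lay above vehicle at an unadjusted p under 0.05. The log2 changes ran from -0.48 (Sirt3) to 0.83 (Sirt2), both of them sirtuins and so not targets. Among the zinc-dependent enzymes Hdac1 had a change of 0.06 ± 0.19, Hdac2 of -0.30 ± 0.21, Hdac3 of -0.10 ± 0.25 and Hdac6, the cytoplasmic tubulin deacetylase, of 0.65 ± 0.19. The signs of Hdac1 and Hdac3 turned under other processing. Of 8 acetyltransferases only Kat2b, which acetylates histone H3, fell (-1.68 ± 0.29). Of 14 members of deacetylase corepressor complexes only Mbd3, a subunit of the NuRD complex, fell (-1.08 ± 0.20), to 0.393, 0.423 and 0.527 of vehicle, below all vehicle arrays (0.872 to 1.13). The calls of Kat2b and Mbd3 were lost without vehicle replicate 1 or 2, and that of Mbd3 also without TSA replicate 1 or 2. A pair of arginine methyltransferases, Prmt1 (-1.22) and Carm1 (-1.21), fell as well, 2 of the 4 measured, and these were picked out after their values were seen.

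H1f2, a linker histone that compacts chromatin, stood at 20.2, 22.4 and 11.6 times the vehicle mean against 0.772 to 1.16 (4.07 ± 0.30, adjusted p = 0.000709). H1f10, a replication-independent linker histone, stood at 2.45, 3.24 and 3.52 against 0.827 to 1.16 (1.57 ± 0.23). Both lay wholly above vehicle, and they were the changed members among 12 linker and replacement histones, whose median was -0.02 with 6 below 0. Other linker histones did not pass, with changes from -0.67 (H1f6) to 0.64 (H1f1), and neither did the replacement histone H2az1 (-0.96, adjusted p = 0.0616). The 8 replication-dependent core histones had 0 changed genes in limma (2 at an unadjusted p under 0.05) and a median change of -0.08. The 16 genes of DNA methylation and Polycomb had 0 (6 unadjusted) and a median of 0.04. Over all genes 21.6% lay under that unadjusted limit. Of 17 SWI/SNF remodelling subunits, Smarca2, the Brm ATPase, alone passed. It stood at 10.3, 14.9 and 11.5 on the TSA arrays and at 1.36 and 1.52 on vehicle replicates 2 and 3, with vehicle replicate 1 far lower at 0.126 (4.05 ± 0.72, adjusted p = 0.0181). Its call held in 6 of the 9 fits without 1 array. The other ATPase, Smarca4, had a change of -0.47 ± 0.38, and the median over the 17 subunits was -0.47. Of the 17, 7 or 41.2% lay wholly below vehicle, against 17.8% of all genes. Below 0 lay 14 of them, and 5211 of all 8251 genes. Among 16 housekeeping genes the median was -0.44 and 56.2% lay wholly below vehicle, so the shift was not particular to these subunits.

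Cyclin-dependent kinase inhibitors, which halt the cell cycle, had the highest upward share, 3 of 8 measured genes or 37.5%. Cdkn1c, which encodes p57 and is imprinted, stood at 17.3, 30.5 and 16.9 times vehicle (4.45 ± 0.48, adjusted p = 0.00269), while its vehicle arrays ran from 0.435 to 1.37. Cdkn2b, which encodes p15, stood at 9.11, 11.1 and 6.33 against 0.751 to 1.28 (3.08 ± 0.41). Cdkn1a, which encodes p21, stood at 2.79, 3.03 and 2.87, averaged over its probe sets, against 0.436 to 1.35 (1.64 ± 0.36, adjusted p = 0.041), and 1 of its 2 probe sets passed alone. In all 3 genes the TSA arrays lay above every vehicle array. The other family members did not pass, with Cdkn1b at -0.72, Cdkn2a at 0.76 and Cdkn3 at 0.36. Without 1 array the calls of Cdkn1c and Cdkn2b held in 9 of 9 fits and that of Cdkn1a in 2.

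Of 32 genes chosen as known responders to deacetylase inhibitors, 9 rose and 1 fell. Besides those named above the rises took in S100a6, Gsn, Igfbp3 (1.96), which binds insulin-like growth factors, the metallothionein Mt1 and Txnip (1.14), which binds thioredoxin. The 2 probe sets of Txnip stood at -0.18 and 2.46, and for Igfbp3 0 of 2 probe sets passed alone. The fall was Tgfbr2. Responders that did not pass included the growth regulator Myc, at -0.54 (adjusted p = 0.225, limma with Benjamini-Hochberg adjustment). The list's median change was 0.55, and 20 of its members lay above 0. Leaving out TSA replicate 2 or 3 left 5 rises. Among 18 targets of p53 the rises were Cdkn1a, the desmosomal protein Perp (1.36) and the kinase Plk2 (1.16), and the list's median was 0.48. None of those 3 passed without vehicle replicate 2 or without TSA replicate 1 or 2, and 1 passed without TSA replicate 3 or RA replicate 2.

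Genes of DNA replication, mitosis, nucleotide synthesis and DNA repair, and the cyclins and CDKs, lay mostly below vehicle, and mostly by little. Of 37 DNA replication genes 3 fell and 0 rose, with a median change of -0.48 and 19 genes wholly below vehicle, 51.4% of the list against 17.8% of all genes. Such a share was not particular to replication. It was 62.5% of ribosome biogenesis genes, 56.2% of housekeeping genes and 52.6% of tRNA synthetases. The replication genes that fell were the replication factor Mcm10 (-1.08), the transcription factor E2f1 (-0.99) and the helicase subunit Mcm4 (-0.81). In mitosis Cenpa (-1.05), the histone variant of centromeres, was the only fall among 28 genes with a median of -0.52, and 0 passed without vehicle replicate 1 or 2, RA replicate 1 or any single TSA replicate. In nucleotide synthesis Rrm2 (-0.94), of ribonucleotide reductase, and Dhodh (-0.76), of pyrimidine synthesis, fell among 19, and at most 1 of them passed without any single array other than vehicle replicate 3. Of 26 cyclins and CDKs, Ccng2 fell (-1.23) and Cdk18 rose (1.16). Ccng2 passed in 1 of the 9 fits without 1 array, that without vehicle replicate 3, and not after centring, and Cdk18 passed in 7, all but those without TSA replicate 2 or 3. Among 28 DNA repair genes limma called 0, with 7 at an unadjusted p under 0.05. The replication calls were fragile: 0 of the 3 passed without vehicle replicate 1 or 2 or any TSA replicate, 1 without RA replicate 1 or 2, and 5 genes passed without vehicle replicate 3. After centring, the list's median was -0.28 and 1 gene passed.

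Genes of cholesterol synthesis and uptake had the highest downward share, 8 of 21 measured genes or 38.1%, with 0 higher, and 19 of 21 lay below 0. The pathway builds mevalonate from acetyl-CoA, turns it into squalene, closes the rings to lanosterol and trims that to cholesterol. Its genes are known to be switched on together by sterol regulatory element-binding proteins when cell sterol is low, with the CCAAT-binding factor NF-Y and Sp1 as partners at their promoters. The 250 bases before the transcription start of 5 of the genes that fell are shown because members of this list moved together. They are RefSeq sequences of GRCm38.p6, written 5′ to 3′ on the strand of the gene, and capitals mark CCAAT or its complement ATTGG.
Cyp51 (chr5:4104698-4104947, minus strand): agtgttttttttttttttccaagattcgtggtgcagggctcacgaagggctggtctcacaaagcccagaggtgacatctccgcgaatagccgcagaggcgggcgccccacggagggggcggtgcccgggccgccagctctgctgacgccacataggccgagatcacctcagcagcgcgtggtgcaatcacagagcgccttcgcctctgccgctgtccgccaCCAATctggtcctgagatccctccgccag
Msmo1 (chr8:64733579-64733828, minus strand): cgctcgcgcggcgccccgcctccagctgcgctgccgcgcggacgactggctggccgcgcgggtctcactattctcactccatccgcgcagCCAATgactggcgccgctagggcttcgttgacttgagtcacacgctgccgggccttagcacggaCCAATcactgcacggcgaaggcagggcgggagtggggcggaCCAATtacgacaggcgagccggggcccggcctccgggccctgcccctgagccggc
Nsdhl (chrX:72918271-72918520, plus strand): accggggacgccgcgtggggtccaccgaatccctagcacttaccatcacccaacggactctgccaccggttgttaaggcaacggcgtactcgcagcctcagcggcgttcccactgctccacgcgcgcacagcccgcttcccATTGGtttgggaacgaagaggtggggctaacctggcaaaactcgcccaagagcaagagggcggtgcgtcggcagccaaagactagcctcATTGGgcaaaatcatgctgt
Lss (chr10:76531355-76531604, plus strand): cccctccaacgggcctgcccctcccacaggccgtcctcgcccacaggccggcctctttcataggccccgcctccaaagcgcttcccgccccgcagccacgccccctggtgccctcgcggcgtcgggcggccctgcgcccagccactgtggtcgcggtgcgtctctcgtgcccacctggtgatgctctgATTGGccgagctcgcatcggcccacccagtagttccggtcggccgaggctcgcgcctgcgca
Idi1 (chr13:8885356-8885605, plus strand): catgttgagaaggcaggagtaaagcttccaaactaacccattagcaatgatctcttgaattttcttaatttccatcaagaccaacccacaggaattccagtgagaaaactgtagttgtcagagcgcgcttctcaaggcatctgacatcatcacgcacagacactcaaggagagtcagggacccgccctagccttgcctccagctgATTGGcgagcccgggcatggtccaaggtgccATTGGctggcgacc

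In these promoters the capitals stand close to the start, the nearest beginning 29 bases before it in Cyp51, 55 in Msmo1, 20 in Nsdhl, 62 in Lss and 14 in Idi1. Promoters, taken from 250 bases before to 50 after the start, were found for 16 of the 21 cholesterol genes and for 6576 of all 8251 genes. CCAAT was present on either strand in 15 of the 16, or 93.8%, against 38.3% of all promoters. Within only the 100 bases before the start the shares were 87.5% and 22.8%. CCAAT was in each of the 7 promoters found for cholesterol genes that fell. It was also in promoters of members that did not pass, such as Tm7sf2 (0.02) and Ebp (-0.30), so it did not set the genes that fell apart. The GC box GGGCGG was present in 93.8% against 59.3% over the whole window, but in 37.5% against 43.8% within those 100 bases. The sterol regulatory element, searched as TCACNCCAC, matched 1 of the 16, Hmgcs1, and 1.23% of all promoters. Matches of different motifs were counted apart, whether or not they overlapped. A match is a description of the letters and not a site of binding, and a missing match says only that these letters are not in the window.

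Along the pathway the early step of Hmgcs1, which makes HMG-CoA, had a change of -0.68 ± 0.27 that did not pass (adjusted p = 0.188). The kinase Mvk (-1.11 ± 0.23), the decarboxylase Mvd (-1.17 ± 0.19) and the isomerase Idi1 (-1.31 ± 0.16), which follow it, fell. For Mvk 0 of 2 probe sets passed alone, at -0.67 and -1.55. Idi1 was the tightest, at 0.383, 0.358 and 0.376 of vehicle against 0.909 to 1.13. The next enzymes Fdps (-0.53) and Fdft1 (-0.78, adjusted p = 0.0773) did not pass, and the sign of Fdps turned when only its probe set with the highest mean was used. Sqle, the epoxidase that commits squalene to sterols, fell to 0.552, 0.422 and 0.401 (-1.06 ± 0.18).

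Of the enzymes that close and trim the rings 4 fell, Cyp51 and Msmo1 by the most. Lss, the cyclase, stood at 0.355, 0.272 and 0.415 against 0.668 to 1.5 (-1.34 ± 0.31). Cyp51, the lanosterol demethylase, stood at 0.263, 0.123 and 0.212 against 0.757 to 1.12 (-2.09 ± 0.26, adjusted p = 0.00512). Msmo1, the methylsterol oxidase, stood at 0.326, 0.198 and 0.257 against 0.790 to 1.23 (-1.76 ± 0.23). In all of these the TSA arrays lay below every vehicle array. Nsdhl, the dehydrogenase that follows Msmo1, fell by 1.36 on the log2 scale with all 3 of its probe sets past the test. The others of these steps did not pass, with Tm7sf2 at 0.02, Hsd17b7 at -0.62, Ebp at -0.30, Sc5d at -0.83 (adjusted p = 0.0955) and Dhcr7 at -0.37. The calls of Cyp51, Msmo1, Nsdhl and Idi1 held in all 9 fits without 1 array, those of Sqle and Mvd in 6, that of Mvk in 3 and that of Lss in 0. The list counted 4 falls without vehicle replicate 2 or TSA replicate 2 and 5 without TSA replicate 1 or 3. Centring gave 6, and dropping vehicle replicate 3 and RA replicate 3, which had the strongest 18S signals of their groups, gave 8.

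**Figure D4:**
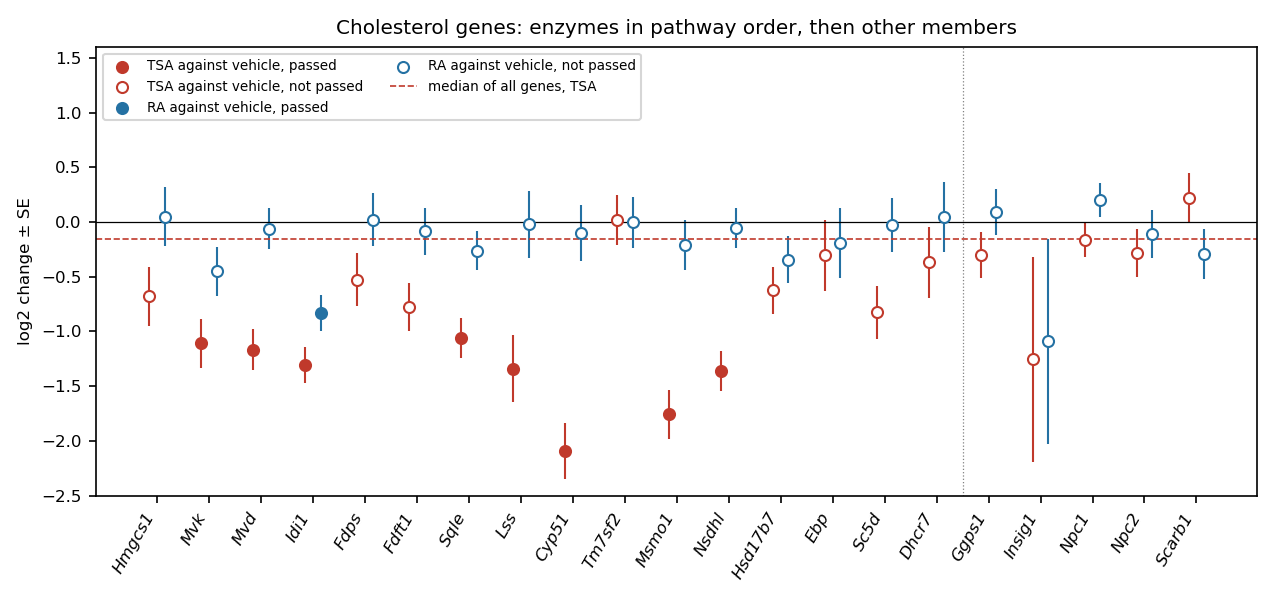
Log2 change against vehicle with its standard error (3 arrays a group) for 21 cholesterol genes, enzymes in pathway order and then other members, in TSA (red) and RA (blue); filled points passed the test, as did 4.5% of all genes in TSA and 1.82% in RA. The 2 treatments share the vehicle arrays. The lowest points are Cyp51 at -2.09 and Msmo1 at -1.76 in TSA, where RA has -0.10 and -0.21.

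Set directly against RA, 6 of the 21 cholesterol genes were lower in TSA and 0 higher, where 2.21% of all genes were lower and 2.79% higher, 412 genes or 4.99% in all. Cyp51 was lower by -1.99 (adjusted p = 0.00389), Msmo1 by -1.55, Lss by -1.32, Nsdhl by -1.31, Mvd by -1.11 and Sqle by -0.80. Idi1 did not differ past the threshold (-0.48, adjusted p = 0.153), and its change in RA was -0.83. Dose differed between the compounds, so this compares the treatments as given.

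Other metabolic lists moved less. Of 25 genes of glycolysis and the pentose phosphate path 4 fell and 2 rose, with a median of -0.51. The falls were Tpi1 (-1.17), Pgam1 (-0.99) and Pfkl (-0.91) of glycolysis and Tkt (-0.98), transketolase. Tpi1 stood at 0.403, 0.403 and 0.440 against 0.873 to 1.13, below all vehicle arrays. The rises were Fbp1, at 12.7, 10.7 and 9.67 times vehicle (3.42 ± 0.46), and Fbp2 (1.86 ± 0.23), both fructose bisphosphatases, which run opposite to glycolysis. Both passed in 9 of 9 fits without 1 array. The falls numbered 1 without vehicle replicate 1 or 2 or TSA replicate 1 or 3, 0 without TSA replicate 2, 2 without RA replicate 3 and 1 after centring. Fatty acid lists had Elovl2 (1.56), a chain elongase, higher and Pcyt2 (-1.14), of phosphatidylethanolamine synthesis, and Echs1 (-1.43), of beta oxidation, lower. The 71 genes of oxidative phosphorylation had 0 called by limma, 7 at an unadjusted p under 0.05, and a median of -0.25.

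Of 77 genes of the interferon response and antigen presentation 10 rose, or 13.0%, and 0 fell, while the list's median was only 0.06 and 40 members lay above 0. Interferon-stimulated genes are known to carry a response element bound by interferon regulatory factors, searched as GAAA, any 2 bases and GAAA again. It was present on either strand in 19.7% of the 61 promoters found for this list and in 3.30% of all promoters. Promoters of Isg15 and Gbp2 were the 2 with a match among the 7 found for the genes that rose. Other members with a match within the 250 bases before the start did not pass and lay on both sides of 0. They are named here after their values were seen. Below 0 were Ifit3 (-1.09) and Ifit1 (-0.83), which hold 2 matches each, Ifitm2 (-0.30), Gbp7 (-0.25) and Gbp2b (-0.23). Above 0 were Oas1g (0.85) and Gbp3 (0.58), which also hold 2 matches each, B2m (1.87) and Ifi207 (0.50). Isg15 and Gbp2 are shown as above, with capitals for the element or its complement.
Isg15 (chr4:156200819-156201068, minus strand): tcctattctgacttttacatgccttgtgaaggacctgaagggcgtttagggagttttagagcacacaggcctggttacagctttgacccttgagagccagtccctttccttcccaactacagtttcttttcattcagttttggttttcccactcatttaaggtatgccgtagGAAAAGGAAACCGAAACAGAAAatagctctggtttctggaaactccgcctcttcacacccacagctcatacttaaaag
Gbp2 (chr3:142620413-142620662, plus strand): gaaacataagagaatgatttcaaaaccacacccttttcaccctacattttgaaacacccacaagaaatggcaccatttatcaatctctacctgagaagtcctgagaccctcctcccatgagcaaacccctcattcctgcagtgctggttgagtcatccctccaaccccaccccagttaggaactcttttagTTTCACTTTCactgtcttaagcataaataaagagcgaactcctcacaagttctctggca

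In the Isg15 promoter 3 overlapping matches begin 78, 72 and 66 bases before the start, and in that of Gbp2 a single match begins 59 bases before it. Isg15, the ubiquitin-like modifier, stood at 3.92, 7.41 and 5.91 times vehicle against 0.865 to 1.14 (2.43 ± 0.49, adjusted p = 0.0287). Gbp2, a guanylate-binding protein, stood at 2.54, 6.74 and 4.64 against 0.398 to 1.65 (2.25 ± 0.52). Both were highest on TSA replicate 2 and neither overlapped with vehicle. Psmb9, the immunoproteasome subunit encoded within the MHC, stood at 10.3, 15.3 and 12.5 against 0.830 to 1.26 (3.6 ± 0.23, adjusted p = 0.000693) and was the only change among 42 proteasome genes. Irf8, an interferon regulatory factor, rose by 1.10. Outside the list rose Usp18, given above, and Cd74 (1.68), the invariant chain of class II MHC, and Icam1 (2.18), an adhesion molecule, both of which were picked after their values were seen.

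The other 6 rises of the list were class I MHC genes, H2-K2 (3.71), H2-Q5 (1.99), H2-D1 (1.76), H2-Q4 (1.37), H2-K1 (1.11) and H2-Bl (1.08), of 20 class I genes measured. These genes are near copies of each other, so a probe set may read several of them and the 6 calls are uncertain as separate genes. For H2-D1 all 3 probe sets passed, from 1.16 to 2.63, while those of H2-K1 ran from -0.52 to 2.36 and 2 of 3 passed. H2-K2 had vehicle values of 2.36, 0.262 and 0.374 under TSA values of 6.83, 8.21 and 12.6. Against RA directly, Psmb9 (3.58) and Gbp2 (2.26) were higher in TSA, and the class I genes did not differ past the threshold, with H2-Q5 at -0.29 and H2-D1 at 0.94. The count of 10 became 6 without vehicle replicate 1, 2 without vehicle replicate 2 or TSA replicate 2, and 5 and 3 without TSA replicates 1 and 3.

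Metal-binding and antioxidant genes numbered 26, of which 5 rose and 0 fell, with a median of -0.18 and 15 members below 0. Mt1, which binds zinc and copper, stood at 2.85, 3.10 and 3.42 against 0.393 to 1.33 (1.76 ± 0.41), and Mt4, its epithelial relative, at 3.03, 5.91 and 4 against 0.770 to 1.26 (2.03 ± 0.30). Both lay above all vehicle arrays, though metallothioneins are close paralogs and may share probes. Nqo1, a quinone reductase, rose by 1.33 ± 0.17 with both probe sets past the test. Gpx3, the secreted glutathione peroxidase (1.03), and Srxn1, sulfiredoxin (0.86), rose less, and the 2 probe sets of Srxn1 stood at -0.09 and 1.81. Of 18 glutathione transferases 3 rose, Gstk1, the microsomal Mgst3 (1.59) and Gstp1 (1.05), which conjugate glutathione to foreign compounds. The antioxidant count was 3 without vehicle replicate 1 or 2, RA replicate 2 or TSA replicate 1 or 3, and 2 without TSA replicate 2. That of the transferases was 1 without vehicle replicate 2 and 0 without TSA replicate 2 or 3.

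Chaperones went in both directions. Hspa1b, an inducible cytosolic Hsp70, stood at 6.30, 9.97 and 6.57 times vehicle against 0.790 to 1.39 (2.88 ± 0.33, adjusted p = 0.00354). Hspa1a, its near-identical copy, stood at 3.31, 7.47 and 3.53 against 0.626 to 1.46 (2.17 ± 0.43), and the pair may share reads of the same RNA. These were the rises among 49 heat shock and DnaJ genes, and 1 of them passed without vehicle replicate 2 or 3 or any single TSA replicate. Of 29 genes of the endoplasmic reticulum and the unfolded protein response 3 fell, the prolyl isomerases Fkbp9 (-1.94 ± 0.22) and Ppib (-0.89 ± 0.17) and the chaperone Hsp90b1 (-0.84 ± 0.19), and 0 rose. Fkbp9 stood at 0.288, 0.161 and 0.232 against 0.872 to 1.09, well below vehicle. It was the only 1 of the 3 to pass without vehicle replicate 1 or 2 or any single TSA replicate.

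Annexins and S100 proteins bind calcium at membranes and the cytoskeleton. Of 23 annexins and S100 proteins 6 rose, or 26.1%, and 0 fell. S100a6, which binds calcium in dividing and epithelial cells, stood at 15.1, 25.2 and 14.2 against 0.624 to 1.23 (4.12 ± 0.31, adjusted p = 0.000709). Anxa8 stood at 7.28, 6.81 and 5.16 against 0.460, 2.12 and 0.418 (2.99 ± 0.59). The other 4, annexins that bind acidic membranes in the presence of calcium, moved by less: Anxa3 (1.22), Anxa2 (0.96), Anxa5 (0.90) and Anxa6 (0.75). The list's median was -0.01, with 12 members below 0, and 9 lay above and 3 below vehicle at an unadjusted p under 0.05. The lowest, S100a9, stood at -1.42 (adjusted p = 0.183) and was picked out after its values were seen. The count was 1 without vehicle replicate 1 or TSA replicate 1 or 2, and 2 without vehicle replicate 2 or TSA replicate 3. Calcium sensors of neurons, picked after their values were seen, also rose, with Calb1 (2.20), Calb2 (1.68), Vsnl1 (2.14) and Hpca (1.29) being 4 of the 6 measured. Fxyd2 (3.05), Fxyd5 (2.59) and Fxyd3 (2.19), which modulate the sodium pump, were 3 of the 5 measured and were picked in the same way.

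In the actin cytoskeleton 6 of 51 genes rose and 2 fell. Gsn, gelsolin, which cuts and caps actin filaments, stood at 10.0, 13.9 and 9.76 against 0.579 to 1.5 (3.5 ± 0.32, adjusted p = 0.00146). Cnn1, the calponin of smooth muscle, stood at 5.80, 14.6 and 9.23 against 0.733 to 1.36 (3.18 ± 0.40). Csrp1, a LIM protein of the actin cytoskeleton, rose by 2.92 ± 0.27 with both probe sets past the test. Cnn2 (1.71), the microvillar bundler Vil1 (1.62) and the myosin light chain Myl4 (0.91) followed. Tpm4, a tropomyosin, fell by 1.19 and Csrp2, the relative of Csrp1, by 0.89 on the log2 scale. The rises numbered 3 without vehicle replicate 2 or TSA replicate 2. The falls numbered 0 without either of those arrays and 1 without vehicle replicate 1 or TSA replicate 1 or 3. Of 42 intermediate filament genes Prph (2.95), Krt19 (1.70) and Nefh (1.66) rose, and for Krt19 the probe sets stood at -0.44 and 3.83. Pkp3 (3.37 ± 0.32) and Pkp2 (1.80 ± 0.21), plaque proteins of desmosomes, were the changes among 32 cadherin and catenin genes. Among 20 integrins limma called 0, with 2 at an unadjusted p under 0.05.

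**Figure D5:**
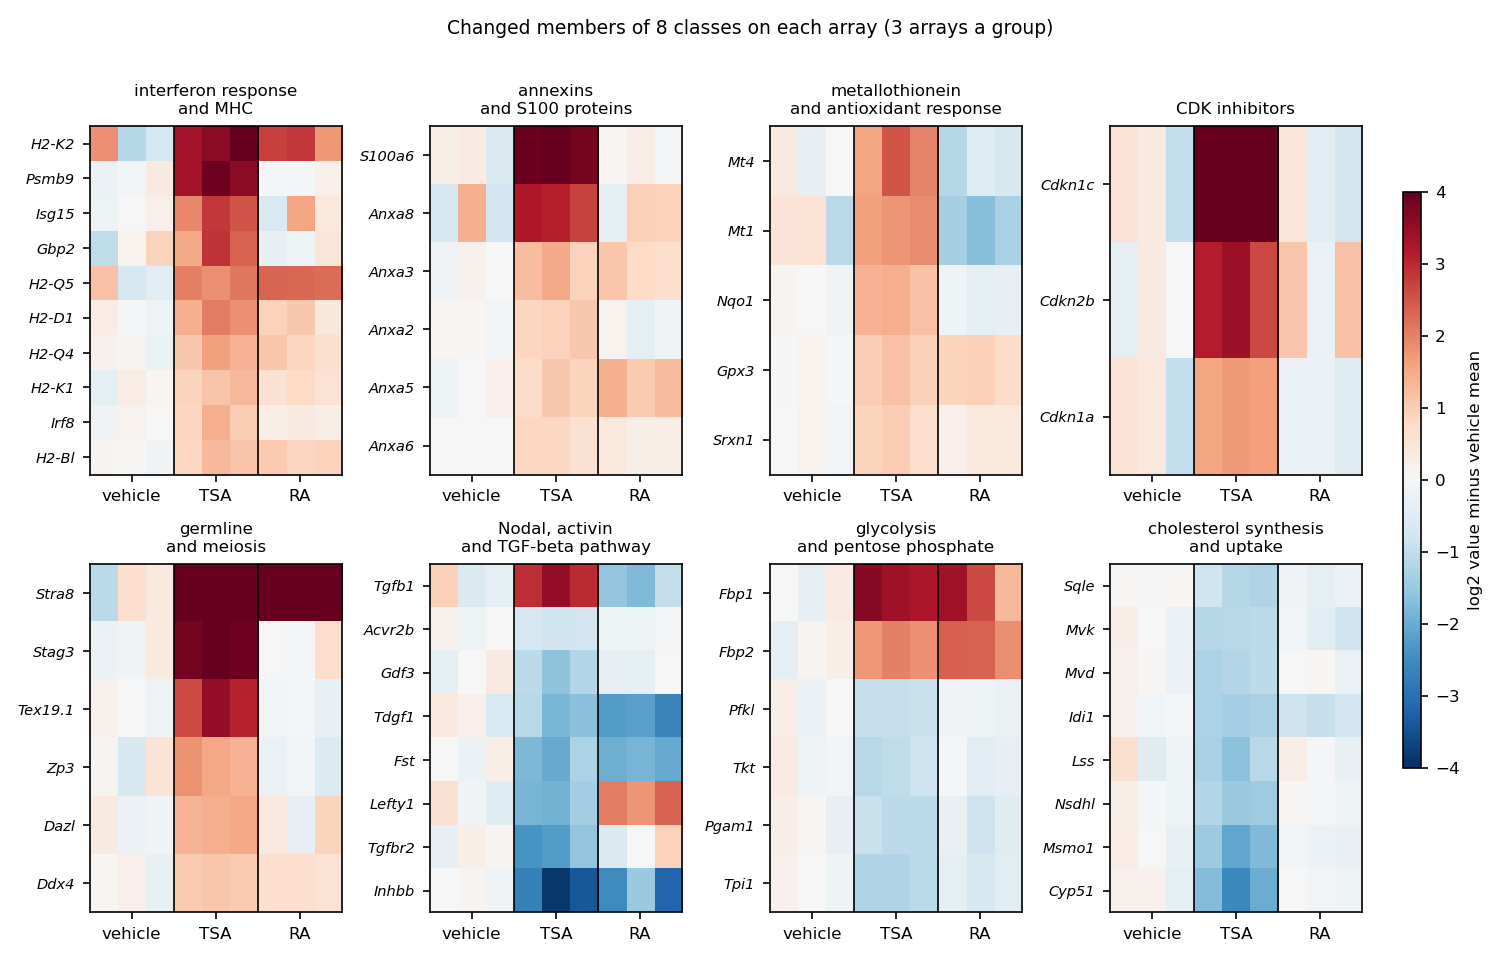
Log2 value minus the vehicle mean on each of 9 arrays (columns: 3 vehicle, 3 TSA, 3 RA) for the changed genes of 8 lists, red higher and blue lower, with colours saturating at 4 and -4. Changed genes hold one colour across the TSA arrays, while the RA arrays share it in some genes (Fbp1, Inhbb, H2-Q5) and not in others (S100a6, Cdkn1c, Cyp51).

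Of 29 germline and meiosis genes 6 rose, or 20.7%, and 0 fell, with a median of 0.07 and 13 members below 0. Stra8, which licenses entry into meiosis, stood at 15.5, 25.7 and 22.5 against 0.394 to 1.44 (4.49 ± 0.42). Stag3, the meiotic cohesin, stood at 14.6, 18.9 and 15.3 against 0.818 to 1.30 (3.97 ± 0.27, adjusted p = 0.000693). Tex19.1, a germline gene that restrains transposons, stood at 6.26, 11.9 and 8.69 against 0.861 to 1.14 (3.06 ± 0.25). In these the groups lay far apart, and the calls held in 9 of 9 fits without 1 array. That of Stra8 was lost under 1 of its 21 alternatives, the variance trend (adjusted p = 0.334). The egg coat protein Zp3 (1.59) and the RNA-binding germ cell proteins Dazl (1.45) and Ddx4 (1.06) rose less, and for Dazl 0 of 2 probe sets passed alone. The count was 3 without any single TSA replicate.

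Of 24 trophoblast genes 5 rose, or 20.8%, and 0 fell, with a median of 0.48. Tfap2c, a trophoblast and germ cell factor, stood at 9.61, 7.75 and 9.63 against 0.474 to 1.65 (3.26 ± 0.44), and the homeobox gene Esx1 at 3.63, 5.39 and 5.22 against 0.692 to 1.26 (2.21 ± 0.26). Phlda2 (1.74), Plac8 (1.70) and Krt19 completed the rises. The count was 2 without TSA replicate 2 and 3 without TSA replicate 3. Of 29 imprinted genes 5 rose, Cdkn1c, Mest (2.42), the zinc finger factor Plagl1 (2.20), Phlda2 and Ndn (1.2), and the ubiquitin ligase Ube3a fell (-0.92). The imprinted count was 3 without vehicle replicate 2 or TSA replicate 1 and 2 without TSA replicate 2. Of 37 neuronal genes Prph, the syntaxin Stx1a (2.60), the microtubule protein Mapt (2.06) and the synaptic calcium sensor Syt1 (1.77) rose and 0 fell.

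Retinoid genes rose in part, 6 of 24 with 2 lower. Crabp2, which hands RA to its receptor, stood at 14.6, 28.9 and 13.3 against 0.857 to 1.22 (4.10 ± 0.35), and Cdx1, a caudal homeobox factor, at 9.95, 19.5 and 15.1 against 0.655 to 1.69 (3.91 ± 0.38). The transglutaminase Tgm2 (2.39), the binding protein Crabp1 (2.07) and the RA-making enzyme Aldh1a2 (1.63) rose too. The retinal reductase Rdh11 (-1.19) and Bhlhe40 (-1.48) fell. The rises were 3 without vehicle replicate 2 or TSA replicate 1. The falls were 0 without vehicle replicate 1 or 2 or TSA replicate 1 or 2, and 1 without RA replicate 2 or TSA replicate 3. Set directly against RA, Stra8 was lower in TSA by -3.43 (adjusted p = 0.00327), Crabp2 and Cdx1 did not differ past the threshold (-1.28 and 0.06), and Aldh1a2 was higher in TSA by 1.79. In that comparison 8 of the 24 genes were lower in TSA and 1 was higher, where 2.21% of all genes were lower and 2.79% higher. Of 32 Hox genes limma called 0 in TSA, with 6 at an unadjusted p under 0.05 and a median of -0.18, and 10 of them were lower in TSA than in RA. The endoderm factor Gata6, at -0.69 in TSA, was lower than in RA by -2.62.

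Signalling through Nodal, activin and TGF-beta, which sustains the early epiblast, showed falls at several tiers, 7 of 34 genes with 1 higher. Among ligands Inhbb, a subunit of activin B, fell to 0.110, 0.0228 and 0.0490 against 0.908 to 1.08 (-3.32 ± 0.43, adjusted p = 0.00574), and Gdf3 fell by 1.28 on the log2 scale, with 1 of its 2 probe sets past the test. The rise was a ligand too. Tgfb1 stood at 7.19, 10.5 and 7.35 against 0.567 to 1.76 (3.15 ± 0.41). Among receptors Tgfbr2, the TGF-beta receptor kinase, fell to 0.151, 0.169 and 0.3 against 0.769 to 1.17 (-2.06 ± 0.39), Acvr2b, an activin receptor, fell by 0.75 and the Nodal co-receptor Tdgf1 by 1.53.

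The antagonists Lefty1 (-1.71) and Fst (-1.70) fell as well, so ligands, receptors and inhibitors were all among the falls. Inhbb, Tgfb1 and Fst held in 9 of 9 fits without 1 array, Lefty1 and Tgfbr2 in 6, Gdf3 in 5, Tdgf1 in 3 and Acvr2b in 0. Under the variance trend the calls of Inhbb (adjusted p = 0.464), Fst (0.116) and Tdgf1 (0.263) were lost, for Inhbb and Fst the only loss among 20 alternatives. The list counted 2 falls without vehicle replicate 2 or TSA replicate 2, 3 without TSA replicate 1 and 4 without TSA replicate 3. Directly against RA, Lefty1 (-3.76) and Tgfbr2 (-2.17) were lower in TSA and Tgfb1 (4.59) was higher.

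Of 28 genes of the BMP, Id and Msx list 4 rose and 0 fell, with a median of -0.03 and 14 members below 0. Id1, Id3 and Id4, inhibitors of basic helix-loop-helix factors that BMP is known to induce, rose by 1.26, 2.05 and 1.56. Id3 stood at 3.40, 5.00 and 4.66 against 0.980 to 1.02, a wide gap (2.05 ± 0.25, adjusted p = 0.00449). Msx2, a homeobox gene of the same response, stood at 7.46, 10.6 and 12.1, with vehicle arrays from 0.373 to 1.93 (3.53 ± 0.49). Each of the 3 Id genes was higher than in RA, by 1.53, 2.07 and 2.25, whereas Msx2 differed by 0.02. The count was 2 without vehicle replicate 2 or TSA replicate 2. Elsewhere in signalling Wnt6 (1.2) rose and the Wnt antagonist Sfrp2 (-0.99) fell, Fgfr4 rose (2.04), and the Hedgehog transducer Smo (-1.64), picked after its values were seen, fell. Of the 9 fits without 1 array, Wnt6 passed in 5, Sfrp2 in 7, Fgfr4 in 1 and Smo in 9. Among 19 Notch pathway genes limma called 0, with 1 at an unadjusted p under 0.05.

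Of 30 pluripotency genes 6 fell and 0 rose, with a median of -0.31. Besides Foxd3, Lefty1, Tdgf1 and Gdf3, the chromatin factor Utf1 fell to 0.428, 0.253 and 0.428 against 0.800 to 1.10 (-1.34 ± 0.29), and the LIF receptor Lifr by 1.11 on the log2 scale, with 1 of its 5 probe sets past the test. The core factors did not pass. Pou5f1 had a change of -1.02 ± 0.31 (adjusted p = 0.0988), Nanog of -0.39 ± 0.21, Sox2 of -0.06 ± 0.19 and Zfp42 of -0.14 ± 0.22, and the last 2 changed sign after centring. Zfp42 was higher in TSA than in RA by 1.55. The list counted 1 fall without vehicle replicate 2 or TSA replicate 2, 3 without TSA replicate 1 and 2 without TSA replicate 3.

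Markers of cell types were followed as list means of log2 values on each array. The 10 embryonal carcinoma markers stood at 0.26, -0.18 and -0.22 on the vehicle arrays and at -0.91, -1.07 and -0.86 on the TSA arrays, with 5 genes lower, all of them also in the pluripotency list. The germ cell factor Dppa3, named after its value was seen, was the only one of the 10 above 0, at 2.01, and did not pass (adjusted p = 0.209). The 9 parietal endoderm markers stood at -0.09, -0.34 and 0.36 and then at 0.39, 0.67 and 0.30, which overlap, and Plat (3.6), tissue plasminogen activator, and Lama1 (1.11), a laminin chain, rose. Of 7 visceral endoderm markers and 4 blood markers limma called 0, and 0 lay under an unadjusted p of 0.05. The 6 neuron markers stood at 0.07, 0.10 and -0.05 on the vehicle arrays and at 0.56, 1.10 and 0.74 on the TSA arrays, and Mapt and Syt1 rose. The 10 fibroblast markers stood at -0.48, -0.83 and 0.64 on the vehicle arrays and at 0.57, 0.26 and 0.63 on the TSA arrays. Of these Thy1 (3.00) and Col1a1 (2.45) rose, while Col1a2 (0.05), Col3a1 (-0.31) and Dcn (-0.97) did not pass, and the 2 probe sets of Col1a1 stood at 0.59 and 4.31. The fibroblast mean was thus as high on vehicle replicate 3 as on the TSA arrays. Of 59 collagen and matrix genes 3 rose, Col1a1, Lama1 and the fibrillar collagen Col5a1 (0.94). That count was 1 without vehicle replicate 1, 0 without vehicle replicate 2 or TSA replicate 2 or 3, and 7 without vehicle replicate 3. The part of such cells in the matrix, actin and neuronal rises was not tested.

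Genes of RNA and protein synthesis shifted little and mostly down. Of 52 splicing genes 4 fell, Hnrnpa1 (-1.21), Prpf31 (-1.08), Sf3a3 (-1.0) and Hnrnpl (-0.95), and 0 rose, with a median of -0.33. That count was 0 without vehicle replicate 1 or 2 or TSA replicate 2 or 3, 1 without TSA replicate 1, 2 without RA replicate 2 and 8 without vehicle replicate 3. The 35 ribosomal proteins (median -0.36), 49 translation factors (-0.36), 32 ribosome biogenesis genes (-0.46), 19 tRNA synthetases (-0.44) and 9 CCT chaperonin genes (-0.34) each had 0 genes called by limma, with 7, 12, 16, 7 and 1 at an unadjusted p under 0.05. Centring raised the medians of the ribosomal and biogenesis lists to -0.16 and -0.26. Of 89 zinc finger genes named Zfp, Zfp101 alone passed (-1.94).

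Genes of the cell surface and of vesicle traffic held some of the largest single changes in lists that otherwise lay near vehicle. Of 75 Rab and vesicle fusion genes 3 rose, Rab3b, Stx1a and Syt1, and 2 fell, the Golgi GTPase Rab31 (-1.16) and the synaptotagmin Syt9 (-1.59). Syt9 stood at 0.301, 0.249 and 0.354 against 0.919 to 1.09, below every vehicle array. Without vehicle replicate 3 the falls of the list numbered 5, and without vehicle replicate 2 or TSA replicate 2 they numbered 1. Of 24 mucins and epithelial surface proteins Muc3 and Cd24a (1.91), a small glycosylated antigen, rose, and 1 of them passed without TSA replicate 2 or 3. Among 59 matrix proteases and inhibitors Plat rose, to 8.01, 20.5 and 8.94 against 0.501 to 1.67 (3.6 ± 0.47), and Adam23 (-1.16) and Mmp10 fell. Those falls numbered 0 without vehicle replicate 2, RA replicate 2 or any single TSA replicate, and 1 without vehicle replicate 3 or RA replicate 1 or 3. Among 45 guidance molecules Sema3e, a semaphorin, rose to 8.64, 10.5 and 3.25 against 0.840 to 1.11 (2.68 ± 0.46), while Sema5b fell by 2.02 on the log2 scale. TSA replicate 3 was the lowest for Sema3e and yet above all vehicle arrays.

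Among 143 solute carriers 4 rose and 3 fell, shares of 2.80% and 2.10% that lie near those of all genes. The rises were the glutamate transporter Slc1a1 (2.09), the metal ion transporter Slc11a1 (1.66), the amino acid transporter Slc7a8 (1.35) and the scaffold Slc9a3r1 (1.07). The falls were the amino acid transporters Slc6a15 (-1.24) and Slc7a3 (-1.2) and the phosphate transporter Slc20a1 (-0.95). The rises numbered 1 without vehicle replicate 2 or TSA replicate 3, 2 without TSA replicate 1 and 0 without TSA replicate 2. The falls numbered 0 without vehicle replicate 1 or 2 or TSA replicate 2 or 3 and 1 without TSA replicate 1.

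In growth factor and insulin signalling the binding proteins went apart, with Igfbp3 and Igfbp4 (1.36) higher and Igfbp2 (-1.28) lower, and Vegfc fell, 4 of 38 genes in all. The 2 rises of that list numbered 1 without vehicle replicate 1 and 0 without any other single array apart from vehicle replicate 3, and the falls 1 without vehicle replicate 2 or TSA replicate 1 and 0 without TSA replicate 2. Single genes passed in several lists. Ccn2, a matricellular protein, stood at 5.81, 9.53 and 5.18 against 0.508 to 1.39 (2.77 ± 0.41) and was the change among 26 immediate-early genes, whose median was 0.41. Mycl (1.62), a Myc relative, rose among 15 genes of the Myc family, the lysosomal protease Ctsb (1.11) among 38 lysosome genes, and Cyp2s1 (1.49) among 39 cytochromes P450. Bnip3 (-1.66), a mitochondrial death protein, fell among 26 apoptosis regulators, and the connexin Gjc1 (-1.10) among 22 junction genes. Without 1 array the call of Ccn2 held in 9 of the 9 fits, those of Ctsb and Cyp2s1 in 5, of Bnip3 in 3, of Gjc1 in 2 and of Mycl in 1. Of 28 tubulin and microtubule genes Mapt and Tubb2a (0.80) rose, 4 genes without vehicle replicate 3 and 1 without any other single array. The 2 probe sets of Tubb2a stood at -0.07 and 1.68. Among 20 genes of amino acid synthesis limma called 0, with 5 at an unadjusted p under 0.05, and among 16 housekeeping genes 0, with 6 and a median of -0.44. Actb, the cytoplasmic actin, had a change of -1.67 ± 0.67 (adjusted p = 0.191), with vehicle arrays from 0.534 to 1.86.

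The compounds were also set against each other over all changed genes, at doses that differed. Of the 224 genes that TSA raised, 116 were higher in TSA than in RA and 2 were lower. Of the 147 that fell, 53 were lower in TSA than in RA and 0 higher. These genes were picked by their values on the same TSA arrays, which favours such a split. The counts therefore do not show that the changes are particular to TSA. Over all genes 412 differed. Dropping RA replicate 1, 2 or 3 gave 211, 201 or 258, and dropping TSA replicate 1, 2 or 3 gave 196, 155 or 205. Both compounds' changes were measured against the same vehicle arrays, so their separate values are only given side by side. Muc3 had 5.01 in TSA and -0.19 in RA, Cdkn1c 4.45 and -0.23, Tgfb1 3.15 and -1.44, and Thy1 3.00 and -1.35, and these were the largest differences in favour of TSA with Coch, whose own rise did not pass (2.80, adjusted p = 0.0598). In favour of RA the largest were the endoderm factor Foxa1 (-0.73 in TSA and 4.70 in RA), Foxq1, the RA-degrading enzyme Cyp26a1, Stra6 and Hoxb9, and these 5 did not pass against vehicle in TSA.

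Promoters of the changed genes differed slightly in base content. For the 171 genes that rose and had a promoter, the median ratio of observed to expected CpG was 0.623, for the 119 that fell 0.790, and for all 6576 it was 0.722. The TATA box TATAAA was present in 13.5% of promoters of genes that rose, 6.72% of those that fell and 10.4% of all. CCAAT stood in 35.1%, 40.3% and 38.3%. The GC box stood in 62.6%, 72.3% and 59.3%, and within the 100 bases before the start in 53.2%, 50.4% and 43.8%, where the order of rises and falls turned. Annexin and S100 promoters were poor in CpG, with a median ratio of 0.214 over 19 promoters, and the E2F letters TTTNNCGC stood in 33.3% of 33 DNA replication promoters against 7.82% of all.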

How the data were processed

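RNA from F9 cells was hybridised to Affymetrix arrays, per the labels, which also name GeneSpring for the analysis of the control arrays. The deposited values are 1 ratio per probe set and array, whose mean over the 3 vehicle arrays is 1. How the signal, the ratio and any scaling were made by the authors is not given in the sources used here, and no detection calls or intensities were used, so precision rests on 3 arrays a group. The lowest ratio, 0.01, occurs 3 times.

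Ratios were taken to log2(ratio + 0.05). Of the probe sets 10833 had a single gene symbol, 396 had several and 1193 none, and the probe sets of a gene were averaged. All 9 arrays entered a single fit in limma 3.58.1 (R 4.3.3), with eBayes and Benjamini-Hochberg adjustment over all genes, and genes were called at an adjusted p under 0.05. Scripts were tested on simulated data. Gene lists were described by counts and medians, with no set test. Promoters came from RefSeq (GRCm38.p6).

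Named were the 20 largest rises and falls with groups that do not overlap, passing members of lists, members of 5 lists and some markers whatever their values, per list without a passing member at most the member that moved most, and the 5 largest differences from RA each way. Not every member of those 5 lists is printed in the text. Genes named outside these rules are marked where they occur. The comparison, its members and the lists were chosen with earlier results of these data known.

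Alternatives were other pseudocounts, centring, quantile normalisation, a filter on low values, other summaries of probe sets, the 6 compared arrays only, a variance trend, array weights, a replicate block, and leaving out arrays.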

Additional observations from a re-analysis of the deposited data

How the results depend on the processing

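The 371 genes changed by TSA became 101 after quantile normalisation, 238 without the 30% of genes with the lowest mean (5 of them lower, since that filter removes genes that fell), 169 with the 6 compared arrays alone, and 95 to 521 when 1 array was left out. The 432 probe sets became 108 after quantile normalisation, 168 with the 6 arrays alone and 107 to 494 without 1 array. The 412 genes that differed between TSA and RA became 158 after quantile normalisation and 155 to 545 without 1 array. Array weights gave 2659 genes, 4494 probe sets and 739 genes, with a weight of 10.3 on vehicle replicate 2, and their estimation stopped before it converged. Other pseudocounts, centring, other summaries of probe sets, a variance trend and dropping vehicle replicate 3 with RA replicate 3, the strongest in 18S of their groups, kept all 3 counts within 1.5 times. A replicate block gave 462 genes, 438 probe sets and 439 genes. After removal of group means, vehicle and TSA arrays of the same number correlated at r of 0.106, 0.0388 and 0.264. Vehicle replicates 2 and 3 each correlated best with the TSA array of their own number, and vehicle replicate 1 with TSA replicate 2 (0.168). RA replicate 3 correlated with vehicle replicate 3 at 0.316 and with TSA replicate 3 at 0.21. Whether the numbers mark pairs was not tested. The block kept 330 of the 371 calls.

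Signs that turned were those of genes that did not pass, such as those given here. Hdac1 ran from -0.0606 to 0.176 when 1 array was left out and had -0.0606 without vehicle replicate 3 and RA replicate 3 together. Hdac3 ran from -0.336 to 0.0403 and had 0.0964 after centring. Sox2 ran from -0.216 to 0.0269 and had 0.14 after centring and 0.038 after quantile normalisation. Zfp42 had 0.0615 after centring, and Fdps 0.148 from its probe set with the highest mean. Tm7sf2, at 0.02 in the main fit, ran from -0.194 to 0.164 when 1 array was left out. The cause of these changes was not tested. Of 72 changed genes with several probe sets, 16 had all of them past the test, 16 had none past it alone and 9 had probe sets of opposite sign.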
